A study of Mus musculus with 36 samples.

Results

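Nuclear receptors are transcription factors that bind DNA directly, most of them under the control of a small lipophilic ligand such as a steroid, a retinoid, thyroid hormone, vitamin D or a fatty acid. The genes described here were the nuclear receptors of a given list of 37 mouse genes, matched by symbol and Entrez identifier to the array's annotation. Of these, 35 were found, each with 1 probe set, among the 19938 genes that could be named. No probe set carried Nr1h2 or Nr2e3 as its single symbol, so these genes were not analysed here. A gene entered the tests where its signal exceeded the 25th percentile of an array on at least 3 arrays, and 34 of the 35 did. Nr3c2, the mineralocorticoid receptor, did not.

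The samples were sorted cells of the mouse fetal gonad, hybridised to Mouse Gene 1.0 ST arrays (Affymetrix), with 3 arrays in each of 12 groups. Germ cells and supporting cells were taken from XY and XX gonads at 3 stages: TS13, before sexual differentiation per the labels, TS24, during it, and TS34, after it. All germ cells carried an Oct4 reporter in descendants of C57BL/6NJ on a mixed background. Supporting cells of all 3 XX groups and of the XY group at TS13 carried Tg(Sry-EGFP)92Ei on a CD-1 background, in which Sry sequences drive the green fluorescent protein. XY supporting cells at TS24 and TS34 came instead from Tg(Sox9-cre/ERT2)1Msan/J on C57BL/6, an inducible Cre driven by Sox9 sequences, and the fluorescent reporter used with it is not named in the labels. Between XY and XX supporting cells at TS24 and TS34, and between TS13 and the later stages in XY supporting cells, the mouse line therefore changes with the comparison, and line and comparison cannot be told apart. Gonads were pooled by sex before sorting. The labels do not say whether replicates were separate pools, so a p-value here reflects the spread among arrays and no more.

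The third XX germ cell array at TS24 stood apart and was left out of the values below. Its signal was 5.07 for the germ cell gene Pou5f1 and 11.19 for the somatic gene Wt1, against 9.53 to 12.02 and 7.18 to 8.19 over the other 17 germ cell arrays. That left 35 arrays, with 2 in this group. Germ cell markers (8 genes) averaged between 10.25 and 11.12 on germ cell arrays and between 5.85 and 7.17 on supporting cell arrays. Supporting cell markers (8 genes) averaged between 6.35 and 6.91 on germ cell arrays and between 8.76 and 9.50 on supporting cell arrays, and 7 of the 8 were called lower in germ cells. Foxl2, which marks the ovarian lineage, lay between 6.05 and 6.57 on XX supporting cell arrays, no higher than on germ cell arrays (5.69 to 6.86). Amh, the testis hormone of the supporting lineage, lay between 9.66 and 10.18 in XY supporting cells at TS24 and TS34, and between 5.75 and 6.24 in XX supporting cells at the same stages. Because these are sorted bulk samples, fewer cells of a type and less RNA per cell cannot be told apart.

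Receptors of this family work in several ways. Retinoic acid, thyroid hormone, vitamin D and PPAR receptors bind DNA as partners of an RXR, steroid receptors act as pairs of themselves, and the orphan receptors of the NR4A, NR5 and NR6 groups depend little or not at all on a known circulating ligand. In the gonad the family is known for DAX1 (Nr0b1), a receptor without the usual DNA-binding domain that opposes its relatives, and for retinoic acid receptors, whose ligand drives meiotic entry in fetal germ cells.

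The upstream sequences of 5 receptors whose signals moved with sex or stage in supporting cells are shown, so that the letters before each start can be read beside the values. They are the 250 bases before the start of each gene, 5′ to 3′ on the gene's own strand, from RefSeq on GRCm38.p6. Where a gene has several starts, the most upstream was taken. Capitals mark matches, on either strand, to any of the motifs listed after the sequences. Rara lies on the plus strand (chr11:98937446-98937695), Nr1d1 on the minus strand (chr11:98775378-98775627), Nr4a1 on the plus strand (chr15:101266596-101266845), Nr2f1 on the minus strand (chr13:78198874-78199123) and Nr2f2 on the minus strand (chr7:70366747-70366996).
Rara: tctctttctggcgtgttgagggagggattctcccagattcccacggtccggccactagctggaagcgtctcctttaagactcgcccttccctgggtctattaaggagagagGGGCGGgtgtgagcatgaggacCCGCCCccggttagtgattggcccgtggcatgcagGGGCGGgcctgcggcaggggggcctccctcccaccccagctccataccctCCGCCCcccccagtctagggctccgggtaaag
Nr1d1: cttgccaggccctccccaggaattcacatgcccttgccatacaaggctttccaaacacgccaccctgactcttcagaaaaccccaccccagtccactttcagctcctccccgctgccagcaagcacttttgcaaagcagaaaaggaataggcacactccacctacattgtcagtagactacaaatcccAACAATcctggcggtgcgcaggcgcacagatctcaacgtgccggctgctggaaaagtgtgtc
Nr4a1: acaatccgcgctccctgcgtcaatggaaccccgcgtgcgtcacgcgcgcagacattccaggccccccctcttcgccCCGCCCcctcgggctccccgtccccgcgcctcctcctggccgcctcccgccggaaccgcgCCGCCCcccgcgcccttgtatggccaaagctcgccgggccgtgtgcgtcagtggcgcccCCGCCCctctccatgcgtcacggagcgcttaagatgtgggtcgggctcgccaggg
Nr2f1: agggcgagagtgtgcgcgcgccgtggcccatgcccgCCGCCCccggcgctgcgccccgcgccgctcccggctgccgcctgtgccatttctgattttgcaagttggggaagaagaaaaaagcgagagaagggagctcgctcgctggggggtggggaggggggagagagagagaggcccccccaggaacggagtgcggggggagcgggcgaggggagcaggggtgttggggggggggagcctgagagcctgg
Nr2f2: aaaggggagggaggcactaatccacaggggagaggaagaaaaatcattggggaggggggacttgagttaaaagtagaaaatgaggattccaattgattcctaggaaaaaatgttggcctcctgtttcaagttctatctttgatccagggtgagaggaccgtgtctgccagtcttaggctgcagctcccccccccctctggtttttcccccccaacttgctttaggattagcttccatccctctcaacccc

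Thra had no entry in the promoter table, and 33 of the 35 receptors did. The GC box GGGCGG occurred 4 times in the Rara window, 3 times in that of Nr4a1 and once in that of Nr2f1. It was present in 21 of 33 receptor windows and in 32.7% of all 32851 windows. Here and below, receptor windows are 1 per gene, whereas all windows count every annotated start, so the shares are of unlike sets. G and C made up from 37.6% to 82.4% of the letters in receptor windows, with a median of 52.4% over all windows. AGGTCA, the core element of nuclear receptor binding sites, was in 6 of 33 receptor windows and in 14% of all windows. The Nr1d1 window held 1 copy of the SOX motif AACAAT, which was in 2 of 33 receptor windows and in 9.42% of all windows. The E-box CACGTG was in 2 of 33 receptor windows (6.02% of all), and the cAMP response element TGACGTCA was in 0 of 33 (1.55% of all). None of these motifs was found in the Nr2f2 window. Such matches describe letters and not binding.

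Signals are log2 values, on which a difference of 1 is a 2-fold ratio, and each is read within a gene, since probe sets of different genes differ in brightness. A gene was called where limma's Benjamini-Hochberg adjusted p over all 17571 tested genes was under 0.05, and differences are given with their standard error (SE). Over 17 comparisons 27 of the 34 tested receptors were called at least once, as were 61.8% of all genes. In the 6 comparisons of XY with XX, 15 receptors were called, 11 of them in supporting cells and 5 in germ cells, against 27.7% of all genes. In the 8 comparisons of neighbouring stages, 12 were called, against 28.2% of all genes.

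**Figure D1:**
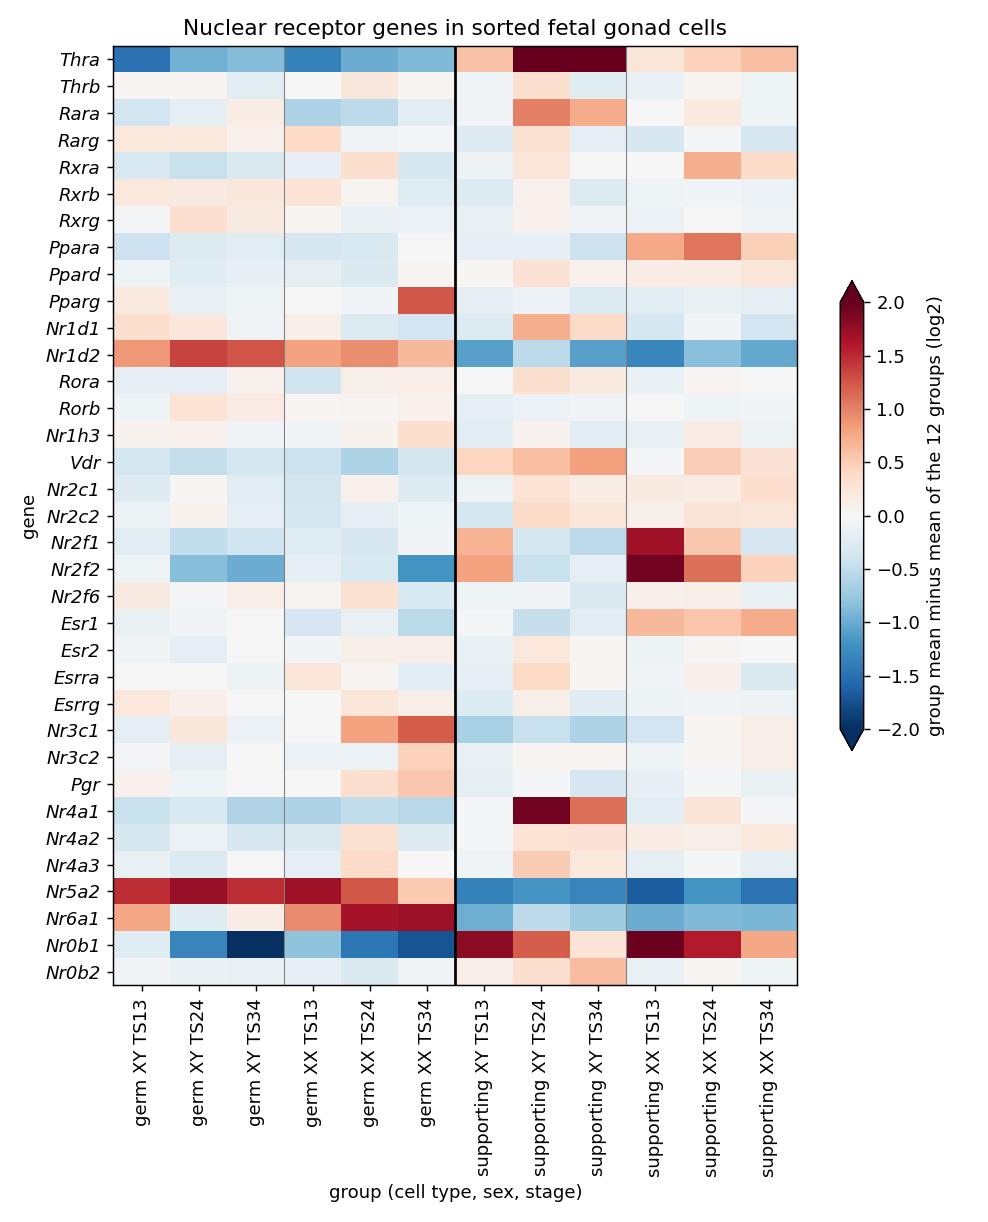
Each row is a receptor gene and each column a group, with colour giving the group mean minus the gene's mean over the 12 groups on the log2 scale (group means rest on 3 arrays, and on 2 for XX germ cells at TS24). Red, above the gene's mean, marks Nr5a2 and Nr1d2 in all germ cell groups, Nr6a1 in XX germ cells, Nr0b1 in supporting cells, Thra and Nr4a1 in XY supporting cells at TS24 and TS34, and Nr2f1 and Nr2f2 in XX supporting cells at TS13.

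Germ cells and supporting cells differed in most of the family. Averaged over stages and sexes, limma called 24 of 34 receptors, with 9 above and 15 below the supporting cells, which is 70.6% of them against 53.2% of all genes tested (32.9% called higher and 20.3% called lower). The median difference was -0.04 over the receptors and 0.08 over all genes. Nr5a2, Nr1d2 and Nr6a1 had the largest differences towards germ cells, and Nr0b1, Thra, Nr2f2 and Nr4a1 those towards supporting cells. Cell type and mouse line changed together here, and their parts cannot be told apart.

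**Figure D2:**
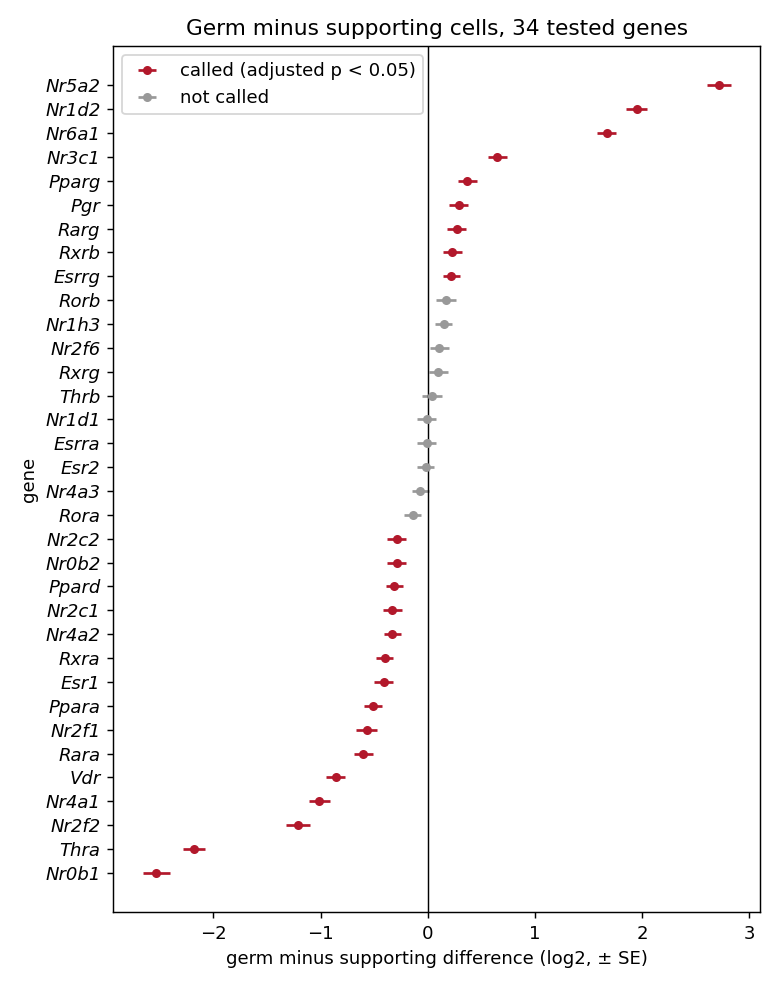
Difference between germ and supporting cells in log2 signal for the 34 tested receptors, with bars of 1 SE and red points for adjusted p under 0.05. Nr5a2 stands at 2.72 and Nr0b1 at -2.53, with 10 uncalled genes between the called groups.

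Nr5a2, or LRH-1, which in mouse embryonic cells binds the regulatory region of the pluripotency gene Oct4, ranged from 7.18 to 9.60 with a median of 8.78 on the 17 germ cell arrays, and from 5.54 to 6.59 with a median of 6.07 on the 18 supporting cell arrays. Nr1d2 (REV-ERB beta, a haem-binding repressor of the circadian clock) ranged from 9.31 to 10.71 with a median of 10.21 in germ cells, and from 7.51 to 9.00 with a median of 8.14 in supporting cells. No germ cell array of either gene fell among the supporting cell arrays. Nr5a2 was higher in germ cells by 2.72 (SE 0.11, adjusted p = 1.77e-27), and Nr1d2 by 1.95 (SE 0.10, adjusted p = 1.51e-22). Nr6a1, the germ cell nuclear factor, which represses Oct4 in the mouse embryo, ranged from 8.42 to 10.79 with a median of 9.56 in germ cells, and from 7.48 to 8.50 with a median of 7.87 in supporting cells. Its ranges touched at one end, between low XY germ cell arrays and high supporting cell arrays, and the difference was 1.67 (SE 0.09, adjusted p = 1.29e-21).

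Thra, the thyroid hormone receptor alpha, was also without overlap between the cell types. It ranged from 5.98 to 7.50 with a median of 6.86 in germ cells, and from 7.95 to 10.48 with a median of 8.48 in supporting cells, a difference of -2.18 (SE 0.10, adjusted p = 3.26e-26). Arrays failed to overlap for 3 of 34 receptors and for 5.97% of all genes. Nr0b1 (DAX1) ranged from 5.29 to 7.90 with a median of 6.22 in germ cells, and from 7.42 to 9.92 with a median of 9.00 in supporting cells. Only the high germ cell arrays of TS13 reached into the supporting cell range, and the difference was -2.53 (SE 0.13, adjusted p = 1.12e-23).

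The remaining large differences belonged to receptors whose ranges overlapped. Nr2f2 (COUP-TFII, an orphan receptor of mesenchymal cells) ranged from 5.92 to 8.12 with a median of 7.08 in germ cells, and from 6.96 to 9.64 with a median of 8.19 in supporting cells, a difference of -1.21 (SE 0.11). The top germ cell value, 8.12, came from the second XX array at TS24, which was also the highest of the germ cell arrays for the somatic genes Wt1 (8.19) and Dcn (7.99), and the part of somatic RNA in it was not tested. Nr4a1 (NUR77, a receptor induced rapidly by hormones and stress) ranged from 6.89 to 7.87 with a median of 7.35 in germ cells, and from 7.48 to 10.22 with a median of 7.94 in supporting cells, a difference of -1.01 (SE 0.10). Vdr, the vitamin D receptor, ranged from 5.96 to 6.58 with a median of 6.24 in germ cells, and from 6.38 to 7.71 with a median of 7.16 in supporting cells, a difference of -0.86 (SE 0.09). All of these were called, with the largest adjusted p at 8.14e-13 for Vdr.

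Retinoid receptors split by type. Rara, the retinoic acid receptor alpha, ranged from 7.52 to 8.85 with a median of 8.25 in germ cells, and from 8.27 to 9.63 with a median of 8.71 in supporting cells, and it was lower in germ cells (-0.60, SE 0.09, adjusted p = 5.76e-08). Rarg was higher in germ cells (0.27, adjusted p = 0.00593). Among their RXR partners, Rxra was lower (-0.40, adjusted p = 2.51e-05) and Rxrb was called higher (0.23, adjusted p = 0.0179), a call that was lost when arrays were normalized to each other by quantiles (0.15, adjusted p = 0.0891) or centred on their medians (0.15, adjusted p = 0.107). Rxrg was not called (0.10, adjusted p = 0.339).

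Receptors for fatty acids and steroids differed in both directions. In germ cells Ppara (-0.51) and Ppard (-0.31), receptors that turn on fatty acid oxidation, were lower, and Pparg (0.37), the adipocyte receptor, was higher. The differences of Ppara and Pparg were not alike in all groups. Ppara averaged 6.74, 6.90 and 6.93 at TS13, TS24 and TS34 in XY germ cells, and 6.99, 6.99 and 6.75 in XY supporting cells. In XX it averaged 6.82, 6.86 and 7.16 in germ cells, and 7.91, 8.23 and 7.63 in supporting cells. Pparg averaged 7.20 in XX germ cells at TS34. In the other germ cell groups it averaged 5.81 to 6.14, and in supporting cells 5.68 to 5.84. Nr3c1, the glucocorticoid receptor, ranged from 6.52 to 8.29 with a median of 6.96 in germ cells, and from 6.11 to 7.35 with a median of 6.44 in supporting cells, a difference of 0.65 (SE 0.09, adjusted p = 2.22e-08). Esr1, the oestrogen receptor alpha, was lower in germ cells on average (-0.41, adjusted p = 5.68e-05). It averaged 6.52, 6.62 and 6.66 by stage in XY germ cells, and 6.64, 6.21 and 6.45 in XY supporting cells. In XX it averaged 6.34, 6.52 and 6.13 in germ cells, and 7.32, 7.22 and 7.42 in supporting cells. Pgr, the progesterone receptor, was called higher in germ cells (0.29, adjusted p = 0.00386), though not after quantile normalization (0.17, adjusted p = 0.0817). Its group means lay near the array background, from 5.63 to 6.26 in germ cells and from 5.39 to 5.70 in supporting cells. The orphan receptors Nr2f1 (-0.57), Nr2c1 (-0.33), Nr4a2 (-0.33), Nr0b2 (-0.29) and Nr2c2 (-0.29) were also lower in germ cells on average. At TS34, however, Nr2f1 averaged 6.27 in XY and 6.61 in XX germ cells, against 6.14 and 6.33 in supporting cells. Group means of Nr0b2 lay near the array background in most groups, from 5.21 to 5.44 in germ cells and from 5.35 to 6.12 in supporting cells. Esrrg, an orphan relative of the oestrogen receptors, was called higher (0.22, adjusted p = 0.0217), but not with quantile normalization (0.13, adjusted p = 0.175), with median centring (0.14, adjusted p = 0.146), with all 36 arrays (0.19, adjusted p = 0.0732) or without the first XX germ cell array at TS24 (0.19, adjusted p = 0.0707).

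Genes that work with these receptors also divided between the cell types. The counts below can be read beside the 17571 tested genes, with 32.9% higher calls and 20.3% lower calls in germ cells. Among 14 tested partners of Nr1d1 and Nr1d2 in the circadian clock, 6 were higher and 6 lower in germ cells (median -0.05, against 0.08 over all genes). Bhlhe41 (-3.72) and Nfil3 (-1.80), both transcriptional repressors, had the largest differences, followed by Cry1 (0.93) and Clock (0.89). Of 10 immediate early genes, the class to which the NR4A receptors belong, 9 were lower in germ cells (median -1.18), with Jun at -3.07 and Fosb at -2.46, and 0 were higher. Among 9 tested PPAR and fatty acid oxidation targets, 5 were lower and 1 higher in germ cells (median -0.82), Plin2, a lipid droplet coat protein, at -2.13 and Angptl4, a secreted lipase inhibitor, at -1.04.

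Within supporting cells the sexes differed in some receptors at each stage. At TS13 3 of 34 receptors were called between XY and XX, all lower in XY, against 3.78% of all genes (1.84% higher and 1.94% lower). At TS24 9 of 34 were called, 5 higher and 4 lower in XY, against 15.3% of all genes (9.75% higher and 5.58% lower). At TS34 8 of 34 were called, 5 higher and 3 lower, against 14% of all genes (8.24% higher and 5.74% lower). The sexes at TS13 shared the Sry-EGFP line, whereas at TS24 and TS34 they did not. The test of whether the sex difference changed between TS13 and TS34 called 1 of 34, Thra. Some of the listed markers of other cells moved with sex as well. Of 3 erythroid markers, 0 were called at TS13 (median 0.83, 2 with an unadjusted limma p under 0.05). At TS24 2 were higher in XY (median 1.05), and at TS34 1 was (median 0.28). Their mean lay between 7.23 and 8.86 on XY and between 7.19 and 7.30 on XX arrays at TS13. At TS24 it lay between 8.14 and 9.57 on XY and between 6.53 and 8.42 on XX arrays. The mean of 4 mesonephric epithelium markers lay between 6.54 and 6.64 on XY and between 7.36 and 7.53 on XX arrays at TS24. Of the 4, 1 was called, Emx2, lower in XY. The other 3 were not called, and the list median was -0.20. Their part in the receptor differences was not tested.

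Thra showed the largest differences of these. In XY supporting cells it read 8.48, 8.47 and 8.44 at TS13, 10.45, 9.90 and 10.48 at TS24, and 10.15, 10.27 and 10.09 at TS34. In XX supporting cells it read 7.95, 8.04 and 8.40 at TS13, 8.53, 8.34 and 8.16 at TS24, and 8.70, 8.42 and 8.36 at TS34. All 6 XY arrays of the later stages lay above every XX array, and the XX arrays of the 3 stages overlapped with each other. XY minus XX was 0.33 (SE 0.23, adjusted p = 0.818) at TS13, 1.93 (SE 0.23, adjusted p = 2.27e-09) at TS24 and 1.68 (SE 0.23, adjusted p = 8.54e-08) at TS34. The difference at TS34 exceeded that at TS13 by 1.34 (SE 0.32, adjusted p = 0.00498), and Thra was the 1 receptor of 34 called in that test, against 4.88% of all genes (3.11% higher and 1.77% lower). With all 36 arrays in the fit the same 1.34 had an adjusted p of 0.0605.

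Rara followed a similar course. It read 8.62, 8.46 and 8.47 in XY supporting cells at TS13, 9.55, 9.63 and 9.59 at TS24, and 9.33, 9.24 and 9.38 at TS34. XX supporting cells read 8.69, 8.58 and 8.51 at TS13, 8.96, 8.88 and 8.45 at TS24, and 8.73, 8.48 and 8.27 at TS34. The sexes overlapped at TS13 and not at the later stages, where XY exceeded XX by 0.82 at TS24 (SE 0.21, adjusted p = 0.00336) and by 0.82 at TS34 (SE 0.21, adjusted p = 0.00356).

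Nr1d1 (REV-ERB alpha, the paralogue of Nr1d2) is encoded beside Thra. It read 6.87, 6.52 and 6.79 in XY supporting cells at TS13, 7.92, 7.42 and 7.83 at TS24, and 7.42, 7.34 and 7.42 at TS34. In XX supporting cells it read 6.66, 6.65 and 6.64 at TS13, 7.02, 7.18 and 6.63 at TS24, and 6.88, 6.59 and 6.36 at TS34. XY lay above XX on all arrays of the later stages, by 0.79 at TS24 (SE 0.22, adjusted p = 0.00827) and 0.78 at TS34 (SE 0.22, adjusted p = 0.00947). At TS24 the call was lost without the third XX array (0.63, adjusted p = 0.0818) or the first XY array (0.69, adjusted p = 0.061), and at TS34 without the third XX array (0.66, adjusted p = 0.086).

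Thra, Nr1d1 and Rara are neighbours on chromosome 11 in the RefSeq annotation of GRCm38.p6, and the transcribed regions of Thra and Nr1d1 overlap on opposite strands. The labelling assay keeps the strand of the RNA, and which exons the probe sets cover is not given in the sources used here. Between these genes and Rara the annotation places 5 coding genes (Msl1, Casc3, Rapgefl1, Wipf2 and Cdc6), all of them tested. Of the 5, 1 was called between the sexes: Cdc6, a DNA replication licensing factor, with XY minus XX at 0.85 at TS24 (adjusted p = 0.0115) and 0.98 at TS34 (adjusted p = 0.00297).

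Nr4a1 was the other receptor with a large male excess. In XY supporting cells it read 7.96, 7.83 and 7.74 at TS13, 9.49, 9.70 and 10.22 at TS24, and 8.83, 9.10 and 9.01 at TS34. XX supporting cells read 7.92, 7.48 and 7.55 at TS13, 8.69, 7.83 and 7.89 at TS24, and 7.74, 7.70 and 8.08 at TS34. The sexes overlapped at TS13, and at TS24 and TS34 every XY array was above every XX array. XY minus XX was 1.67 at TS24 (SE 0.23, adjusted p = 8.33e-08) and 1.14 at TS34 (SE 0.23, adjusted p = 0.000155). Nr4a3, its relative, read 5.89, 6.04 and 5.95 in XY at TS24, against 5.81, 5.20 and 5.22 in XX, near the array background and without overlap. It was called (0.55, SE 0.18, adjusted p = 0.0296) and lost the call without any of 4 single arrays: the second (0.45, adjusted p = 0.182) or the third XX array (0.46, adjusted p = 0.141), or the second (0.51, adjusted p = 0.0836) or the third XY array (0.56, adjusted p = 0.0664).

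Immediate early genes, the class of Nr4a1, gave different counts by sex and by stage. At TS24 0 of 10 were called between the sexes by limma (3 with an unadjusted p under 0.05, median -0.14, against 0.04 over all genes), and at TS34 4 of 10 were lower in XY and 0 higher (median -0.70, against -0.01 over all genes). Those 4 were Fosb (-2.06), Fos (-1.38), Atf3 (-1.13) and Dusp1 (-1.07). Between TS24 and TS13 in XY supporting cells 4 of 10 were higher and 0 lower (median 0.39, against 0.22 over all genes), with Egr2 at 2.87 and Egr1 at 1.39, and in XX supporting cells 3 were higher and 0 lower (median 0.45, against 0.11). Between TS34 and TS13, in the added comparison, 3 were higher and 1 lower in XY supporting cells (median 0.13, against 0.03).

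**Figure D3:**
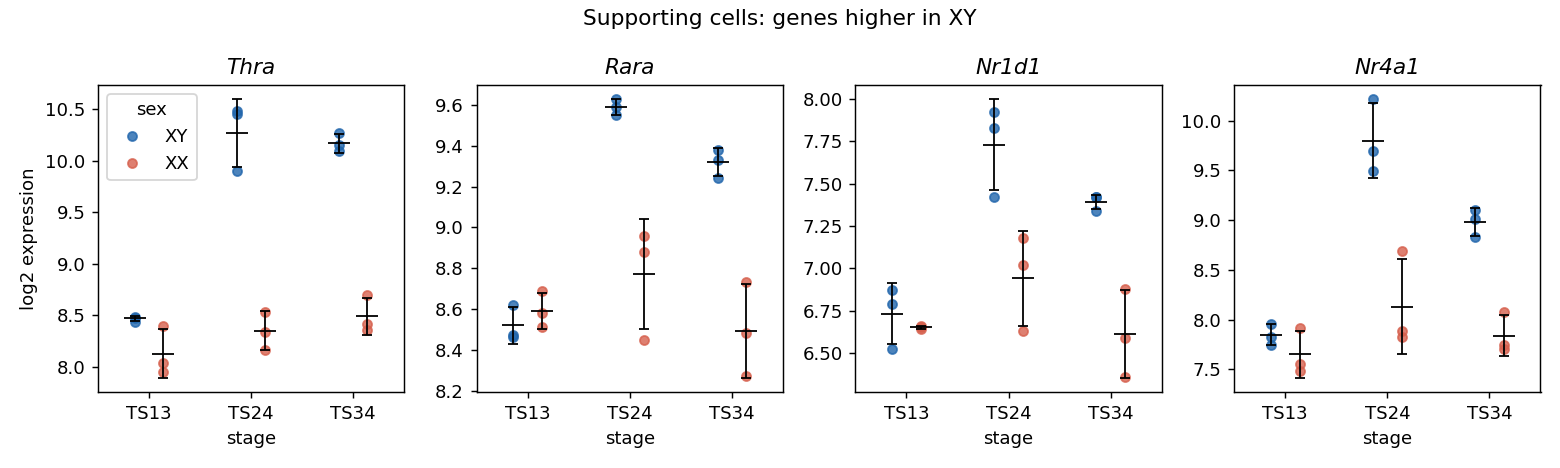
Log2 signal of Thra, Rara, Nr1d1 and Nr4a1 in supporting cells by stage, with a point per array (blue XY, red XX), a line at the mean of 3 arrays and bars of 1 SD. The XY points rise away from the XX points at TS24 and TS34, to means of 10.27 and 10.17 for Thra against 8.35 and 8.49 in XX.

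The same 4 receptors rose in XY supporting cells at TS24 relative to TS13. In that step 9 of 34 receptors were called, 7 higher and 2 lower at TS24, against 16.8% of all genes (15.1% higher and 1.7% lower), and the median difference over all genes was 0.222. Nr4a1 rose by 1.96 (SE 0.23, adjusted p = 4.42e-09), Thra by 1.81 (SE 0.23, adjusted p = 3.28e-08), Rara by 1.07 (SE 0.21, adjusted p = 0.000171) and Nr1d1 by 1.00 (SE 0.22, adjusted p = 0.000782). Nr2c2, the testicular receptor TR4, averaged 10.08 at TS24 and 9.36 at TS13, and the oestrogen-related receptor Esrra averaged 7.19 at TS24 and 6.62 at TS13. The arrays of TS24 did not overlap with TS13 in any of the first 4. The line changed at this step. Nr2c2 (0.72, adjusted p = 0.0167), Nr4a3 (0.59, adjusted p = 0.0171) and Esrra (0.57, adjusted p = 0.0475) were also called higher, and each lost its call with quantile normalization, where Nr2c2 stood at 0.37 (adjusted p = 0.195), Nr4a3 at 0.46 (adjusted p = 0.0517) and Esrra at 0.38 (adjusted p = 0.19). With arrays left out in turn, Nr2c2 lost the call without the third XY array at TS13 (0.61, adjusted p = 0.104) and the first or the third at TS24, and Nr4a3 without the first or the third at TS13 or the second at TS24 (adjusted p up to 0.0566). Esrra lost it without any 1 array at TS13 and without the first at TS24 (0.30, adjusted p = 0.423). Between TS34 and TS24 limma called 0 of 34 in XY supporting cells, 5 with an unadjusted p under 0.05, against 1.06% of all genes (0.159% higher and 0.905% lower).

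Thra, Nr4a1 and Rara stayed higher at TS34 than at TS13 in XY supporting cells, in comparisons of TS34 with TS13 that were added after the data had been seen. There 7 of 34 receptors were called, against 10% of all genes, with Thra at 1.70 (adjusted p = 1.38e-07), Nr4a1 at 1.14 (adjusted p = 0.000275) and Rara at 0.80 (adjusted p = 0.00719) among them. Nr1d1 was called at 0.66 (SE 0.22, adjusted p = 0.0437), and lost the call without any one of the 6 arrays, with the adjusted p reaching 0.181.

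The receptors lower in XY supporting cells included both COUP transcription factors. Nr2f2 read 8.40, 8.60 and 8.19 in XY at TS13, 6.96, 7.39 and 7.13 at TS24, and 7.58, 7.38 and 7.26 at TS34. In XX it read 9.53, 9.42 and 9.64 at TS13, 8.84, 8.85 and 8.41 at TS24, and 7.87, 8.19 and 8.13 at TS34. XY lay below XX on every array of each stage. XY minus XX was -1.13 at TS13 (SE 0.27, adjusted p = 0.00547) and -1.54 at TS24 (SE 0.27, adjusted p = 1.6e-05), and it was not called at TS34. The call at TS13 was lost with all 36 arrays in the fit (-1.13, adjusted p = 0.34), in which the left-out array read 10.47.

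Nr2f1 (COUP-TFI) read 7.85, 7.50 and 6.77 in XY supporting cells at TS13, 6.17, 6.65 and 6.14 at TS24, and 6.22, 6.00 and 6.20 at TS34. XX supporting cells read 8.46, 8.12 and 8.50 at TS13, 7.54, 7.36 and 6.71 at TS24, and 6.46, 6.18 and 6.35 at TS34. The sexes did not overlap at TS13 or TS24 and overlapped at TS34. XY minus XX was -0.99 at TS13 (SE 0.23, adjusted p = 0.00509) and -0.88 at TS24 (SE 0.23, adjusted p = 0.00468). The call at TS13 was lost without the third XY array (-0.69, adjusted p = 0.173) and with all 36 arrays (-0.99, adjusted p = 0.0509), and that at TS24 without the first XX array (-0.71, adjusted p = 0.0574).

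Both COUP factors were lower at TS34 than at TS13 in both sexes, though Nr2f2 in XY averaged 7.16 at TS24 and 7.41 at TS34. At TS24 relative to TS13, Nr2f1 fell by 1.16 in XX supporting cells (SE 0.23, adjusted p = 0.000953) and by 1.05 in XY supporting cells (SE 0.23, adjusted p = 0.000863), and Nr2f2 fell by 1.24 in XY supporting cells (SE 0.27, adjusted p = 0.000692). With all 36 arrays the last call was lost (-1.24, adjusted p = 0.072). Between TS24 and TS13 in XX supporting cells 2 receptors of 34 were called, Nr2f1 and Rxra, against 3.37% of all genes (2.6% higher and 0.768% lower). Rxra read 8.26, 8.42 and 8.21 there at TS24, against 7.57, 7.56 and 7.58 at TS13, without overlap (0.73, SE 0.19, adjusted p = 0.02), and the call was lost without 5 of the 6 arrays in turn, with the adjusted p reaching 0.118. Between TS34 and TS24 limma called 0 of 34 in XX supporting cells, 4 with an unadjusted p under 0.05, against 0.643% of all genes (0.176% higher and 0.467% lower).

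The whole span, in the added comparisons of TS34 with TS13, gave -2.03 for Nr2f1 (SE 0.23, adjusted p = 4.38e-09) and -1.47 for Nr2f2 (SE 0.27, adjusted p = 0.00012) in XX supporting cells. In XY supporting cells it gave -1.23 for Nr2f1 (SE 0.23, adjusted p = 0.00012) and -0.99 for Nr2f2 (SE 0.27, adjusted p = 0.01). The last was lost without the second array at TS13 (-0.89, adjusted p = 0.0516) or the third at TS34 (-0.91, adjusted p = 0.0608), and with all 36 arrays Nr2f2 was called in neither sex (adjusted p = 0.0801 in XX and 0.249 in XY). Of 4 tested stromal markers, 1 was called over the same span in each sex, with list medians of 0.05 in XY and -0.41 in XX. This was Pdgfra, a receptor of interstitial progenitors, which read 9.86, 9.55 and 9.56 in XY supporting cells at TS13, and 7.18, 7.10 and 6.97 at TS34. The mean of 5 stromal markers lay between 6.84 and 6.99 on XY supporting cell arrays at TS13 and between 6.43 and 6.61 at TS34, with 6.57 to 6.63 in XX at TS13 and 6.16 to 6.28 in XX at TS34. The part of stromal cells in the fall of the COUP factors was not tested.

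Ppara was lower in XY supporting cells at all 3 stages. In XY it read 7.05, 7.11 and 6.80 at TS13, 6.67, 7.22 and 7.07 at TS24, and 6.70, 6.61 and 6.95 at TS34. In XX it read 7.98, 7.69 and 8.06 at TS13, 8.55, 8.23 and 7.89 at TS24, and 7.42, 7.50 and 7.96 at TS34. No XY array reached an XX array. The differences were -0.92 at TS13 (SE 0.20, adjusted p = 0.00168), -1.24 at TS24 (SE 0.20, adjusted p = 2.88e-06) and -0.88 at TS34 (SE 0.20, adjusted p = 0.000866), and it lost no call without any single array.

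Some genes known as PPAR targets were also lower in XY. Of 9 tested, 4 were lower in XY supporting cells at TS13 (median -0.49, against -0.07 over all genes), 6 at TS24 (median -0.96, against 0.04) and 5 at TS34 (median -0.66, against -0.01), and 0 were higher at any stage. The other 5, 3 and 4 were not called at these stages, and of all genes 1.94%, 5.58% and 5.74% were called lower. Pdk4, the kinase that shuts off pyruvate use, read 6.19, 5.43 and 5.32 in XY at TS24, against 9.02, 8.42 and 8.59 in XX (-3.03, SE 0.31, adjusted p = 4.73e-11). Cd36, a fatty acid importer, averaged 5.07 in XY and 6.72 in XX at TS24 (-1.65, SE 0.20), Acadl, a fatty acid dehydrogenase, was at -1.35 (SE 0.25) and Angptl4 at -1.28 (SE 0.21). In contrast Ppargc1a, a coactivator of Ppara and of other receptors, read 9.15, 9.19 and 9.09 in XY at TS24, against 5.96, 6.28 and 5.98 in XX. It was higher in XY by 3.90 at TS13, 3.07 at TS24 and 2.19 at TS34 (SE 0.23 at each).

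Esr1, the oestrogen receptor alpha, was likewise lower in XY. In XY supporting cells it read 6.69, 6.61 and 6.63 at TS13, 6.22, 6.13 and 6.28 at TS24, and 6.45, 6.39 and 6.50 at TS34. XX supporting cells read 7.01, 7.54 and 7.42 at TS13, 7.53, 6.99 and 7.14 at TS24, and 7.29, 7.34 and 7.65 at TS34. The sexes did not overlap at any stage. The difference was called at TS24 (-1.01, SE 0.21, adjusted p = 0.000229) and at TS34 (-0.98, SE 0.21, adjusted p = 0.000361). At TS13 it was not called on the deposited values (-0.68, SE 0.21, adjusted p = 0.0527), though it was after quantile normalization. The change of the difference between TS13 and TS34 was not called (-0.30, SE 0.29, adjusted p = 0.888).

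**Figure D4:**
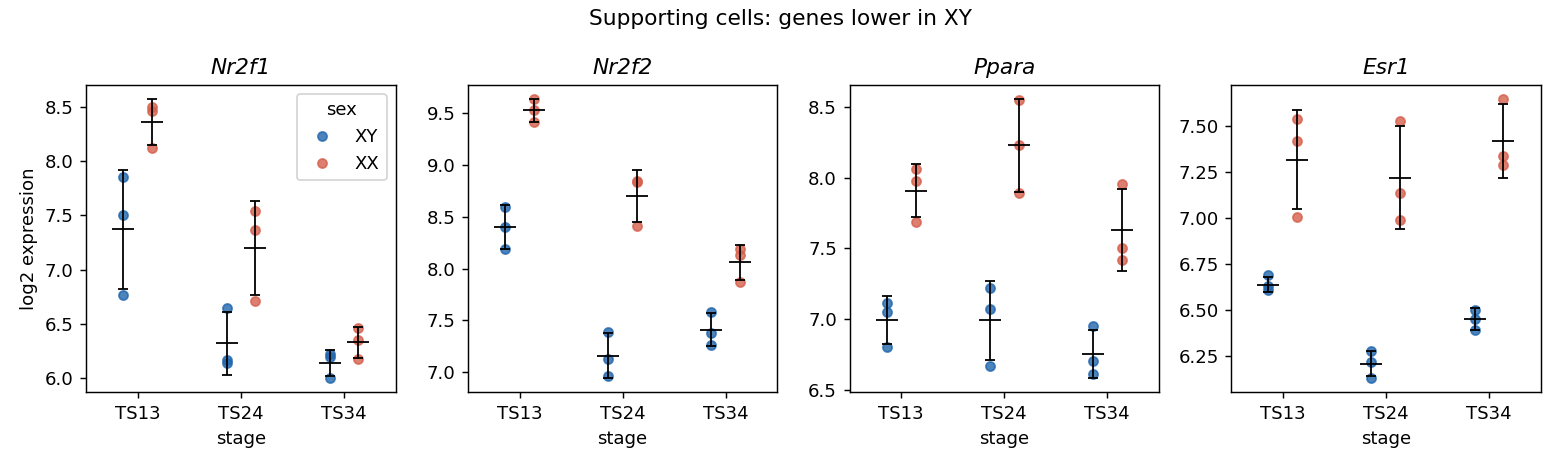
Log2 signal of Nr2f1, Nr2f2, Ppara and Esr1 in supporting cells by stage, with a point per array (blue XY, red XX), a line at the mean of 3 arrays and bars of 1 SD. Both COUP factors lie lower at TS34 than at TS13 in both sexes, with Nr2f2 in XY lowest at TS24. Ppara and Esr1 keep XY below XX at all 3 stages.

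Nr0b2 and Nr3c1 were called between the sexes in supporting cells at TS34 alone. Nr0b2 (SHP, which like Nr0b1 lacks a DNA-binding domain) read 6.05, 6.15 and 6.16 in XY, against 5.49, 5.32 and 5.44 in XX, without overlap (0.70, SE 0.21, adjusted p = 0.0125). The XX values lay near the array background, with 25th percentiles of 5.378, 5.208 and 5.32 on these arrays. Nr0b2 lost the call without the second XX array (0.66, adjusted p = 0.0607) or the third XY array (0.68, adjusted p = 0.05). Nr3c1 read 6.17, 6.15 and 6.42 in XY, against 7.35, 6.68 and 6.92 in XX (-0.74, SE 0.22, adjusted p = 0.0141), and lost the call without the first XX array (-0.55, adjusted p = 0.147), the first XY array (-0.70, adjusted p = 0.0594) or the second XY array (-0.69, adjusted p = 0.0668). The mean of 4 steroidogenic markers lay between 6.91 and 7.21 on the XY arrays of this stage and between 5.66 and 5.74 on the XX arrays, with Cyp17a1, an androgen synthesis enzyme, at 7.76, 7.30 and 7.34 in XY, and the part of steroidogenic cells in these values was not tested.

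Targets of the retinoic acid and glucocorticoid receptors moved in mixed directions in supporting cells. Of 9 tested retinoic acid response genes, 4 were lower and 1 higher in XY at TS24 (median -0.06), and 2 were lower and 1 higher at TS34 (median -0.13). Dhrs3, which turns retinal back to retinol, was at -2.51 at TS24 and -3.56 at TS34, while Cyp26b1, which degrades retinoic acid, was at 1.86 at TS24 and 1.32 at TS34. Of 10 glucocorticoid response genes, 1 was higher at TS24, the receptor chaperone Fkbp5 (1.06, SE 0.20), and it was again higher at TS34 (1.11, SE 0.20), where 1 other was lower.

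No receptor separated the sexes of germ cells at TS13. By limma 0 of 34 receptors were called there, 0 had an unadjusted p under 0.05, and 0.0285% of all genes were called (554 with an unadjusted p under 0.05). At TS24 2 of 34 were called, both lower in XY, against 1.96% of all genes (0.495% higher and 1.46% lower), and at TS34 4 of 34 were called, 3 lower and 1 higher, against 10.5% of all genes (6.04% higher and 4.46% lower). The line was the same in all germ cell groups.

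Nr6a1 was called at both of these stages. In XY germ cells it read 9.56, 8.90 and 10.13 at TS13, 8.47, 8.62 and 8.42 at TS24, and 8.53, 9.15 and 9.02 at TS34. In XX germ cells it read 9.62, 9.91 and 9.54 at TS13, 10.04 and 10.79 at TS24, and 10.57, 10.50 and 10.31 at TS34. The sexes overlapped at TS13 and lay apart at TS24 and TS34, with XY below. The difference, XY minus XX, was -1.91 at TS24 (SE 0.25, adjusted p = 7.31e-07) and -1.56 at TS34 (SE 0.23, adjusted p = 1.06e-06). The TS24 call depended on leaving out the array with the somatic profile, whose Nr6a1 signal was 7.54: with it the difference was -0.96 (adjusted p = 0.16). Compared with TS13, the sex difference at TS34 had changed by -1.40 (SE 0.32, adjusted p = 0.00457).

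In XY germ cells Nr6a1 fell by 1.03 at TS24 relative to TS13 (SE 0.23, adjusted p = 0.00496). It was the 1 receptor of 34 called in this step, against 1.5% of all genes (0.837% higher and 0.66% lower). The call was lost without the third XY array at TS13 (-0.73, adjusted p = 0.171) and with all 36 arrays (-1.03, adjusted p = 0.413). In the added comparison of TS34 with TS13 Nr6a1 rose by 0.77 in XX germ cells (SE 0.23, adjusted p = 0.0108), and that call was lost without the third XX array at TS13 (0.70, adjusted p = 0.0537) and with all 36 arrays (0.77, adjusted p = 0.201).

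Pparg was high in 1 group of the 12. It read 7.07, 6.55 and 7.97 in XX germ cells at TS34, against 5.67, 6.07 and 5.83 in XY germ cells at that stage and 5.91 and 5.87 in XX germ cells at TS24. Over the arrays of the other 11 groups it lay between 5.53 and 6.30, so that no array reached those of XX germ cells at TS34, which spread over more than 1 unit themselves. XY minus XX at TS34 was -1.34 (SE 0.22, adjusted p = 1.18e-05), and TS34 minus TS24 in XX germ cells was 1.31 (SE 0.25, adjusted p = 0.000278). Pparg was the 1 receptor of 34 called in that step, against 8.88% of all genes. With a filter at the 50th percentile Pparg was not tested, since its signals in most groups were near the array background.

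Nr3c1, the glucocorticoid receptor, differed in the same direction. It read 6.58, 6.60 and 7.08 in XY germ cells at TS34, against 8.15, 7.76 and 8.29 in XX germ cells, without overlap (-1.32, SE 0.22, adjusted p = 1.67e-05). At TS24 it read 6.88, 7.46 and 6.96 in XY and 8.03 and 7.31 in XX, and at TS13 6.56, 6.52 and 6.95 in XY and 7.33, 6.73 and 6.54 in XX, with overlap at both. TS34 minus TS13 in XX germ cells was 1.20 (SE 0.22, adjusted p = 4.53e-05) in the added comparison. Of 10 glucocorticoid response genes, 1 was higher in XY germ cells at TS34, the kinase Sgk1 (0.96, SE 0.18), and 1 was lower, Tsc22d3 or GILZ (-0.63, SE 0.21), with a median of -0.01.

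Nr5a2 was the receptor higher in XY. It read 8.78, 8.63 and 9.36 in XY germ cells at TS34, against 8.22, 8.50 and 7.18 in XX germ cells, without overlap (0.95, SE 0.27, adjusted p = 0.0118). Here the third XX array, at 7.18, and the third XY array decided the call, which was lost without the one (0.56, adjusted p = 0.291) or the other (0.73, adjusted p = 0.136), and also with all 36 arrays (0.95, adjusted p = 0.187). XX germ cells read 9.17, 9.42 and 8.80 at TS13, and TS34 minus TS13 was -1.16 (SE 0.27, adjusted p = 0.00101), which without the third XX array at TS34 was -0.76 (adjusted p = 0.0562) and with all 36 arrays had an adjusted p of 0.0543.

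Rxra was called lower in XY germ cells at TS24, at 7.09, 7.02 and 7.28 against 7.88 and 7.92 in XX germ cells, without overlap (-0.77, SE 0.22, adjusted p = 0.0456). The call was lost when any one of the 5 arrays was left out, with the adjusted p reaching 0.345. At TS34 the sexes overlapped, at 6.98, 7.47 and 7.44 in XY and 7.17, 7.45 and 7.16 in XX.

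Retinoic acid response genes of germ cells were lower in XY where called. Of 9 tested, 3 were lower at TS24 (median -0.21, against 0.02 over all genes) and 2 at TS34 (median -0.26, against 0.06), with 0 higher at either stage. The other 6 and 7 were not called at these stages, and of all genes 1.46% and 4.46% were called lower. Stra8, the retinoic acid target needed for meiosis, was at -1.75 at TS24 and -4.65 at TS34, and Rec8, a meiotic cohesin, at -1.11 at TS24 and -2.40 at TS34. Rara itself read 8.50, 8.85 and 8.85 in XY germ cells at TS34, against 8.33, 8.59 and 8.13 in XX germ cells, which overlapped, and was not called.

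**Figure D5:**
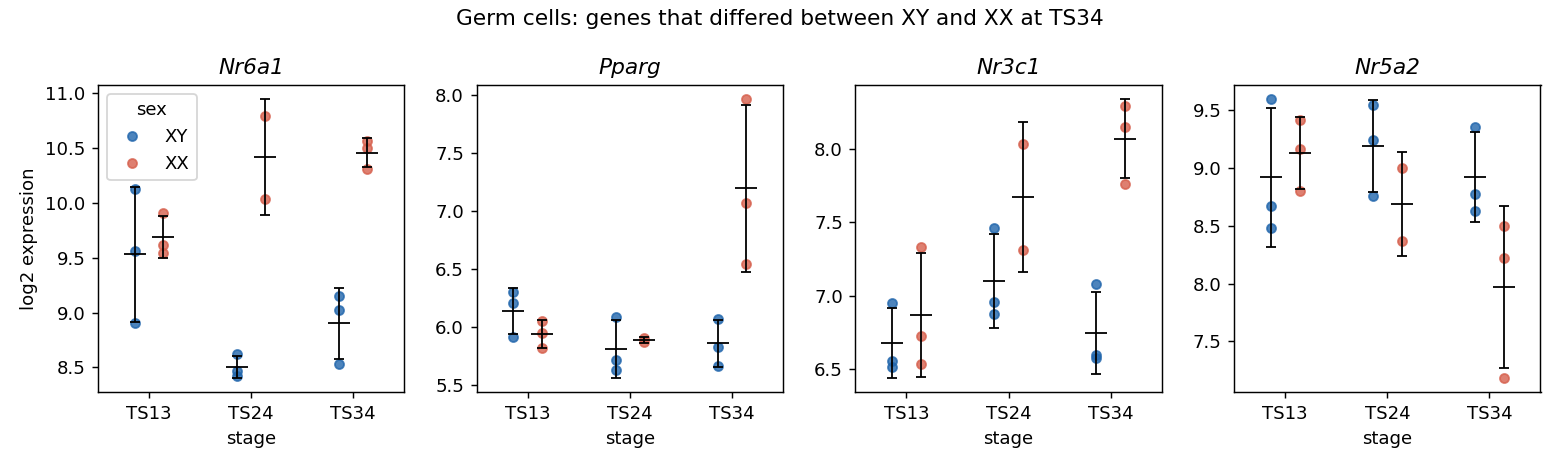
Log2 signal of Nr6a1, Pparg, Nr3c1 and Nr5a2 in germ cells by stage, with a point per array (blue XY, red XX), a line at the mean and bars of 1 SD (3 arrays, and 2 for XX at TS24). Pparg is set apart by XX germ cells at TS34, with a mean of 7.20 against 5.86 in XY, and Nr6a1 by XY germ cells lying below XX from TS24 on.

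The test of whether the sex difference in germ cells changed between TS13 and TS34 called 3 of 34 receptors, against 3.69% of all genes (1.82% higher and 1.87% lower). Besides Nr6a1 these were Pparg (-1.54, SE 0.31, adjusted p = 0.00113) and Nr3c1 (-1.13, SE 0.31, adjusted p = 0.0242). Nr3c1 lost this call without any of 6 of the 12 arrays in turn, with the adjusted p reaching 0.108, and with all 36 arrays (adjusted p = 0.0547). Nr6a1 had an adjusted p of 0.264 with all 36 arrays. Between TS24 and TS13 in XX germ cells limma called 0 of 34 receptors, 7 with an unadjusted p under 0.05, against 1.21% of all genes, and between TS34 and TS24 in XY germ cells it called 0 of 34, 1 with an unadjusted p under 0.05, against 2.73% of all genes.

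Nr0b1 declined with stage in all 4 combinations of cell type and sex. In XY supporting cells it read 9.92, 9.69 and 8.76 at TS13, 9.44, 8.67 and 8.55 at TS24, and 7.42, 8.24 and 8.18 at TS34. In XX supporting cells it read 9.61, 9.77 and 9.50, then 9.25, 9.24 and 9.30, then 8.50, 8.42 and 8.40 at the same stages. Its arrays at TS34 lay below those at TS13 in both sexes, and those of XX supporting cells fell into 3 separate ranges.

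In XY germ cells Nr0b1 read 7.45, 7.00 and 7.83 at TS13, 6.16, 6.22 and 6.69 at TS24, and 5.29, 5.39 and 6.21 at TS34. In XX germ cells it read 7.90, 6.18 and 6.52 at TS13, 6.62 and 5.85 at TS24, and 5.97, 6.38 and 5.50 at TS34. Only in XX germ cells did TS34 overlap with TS13, where the second TS13 array (6.18) lay below the second TS34 array (6.38). The first TS13 array there was high, at 7.90. No step between neighbouring stages was called, whereas TS34 minus TS13, in the added comparisons, was -1.51 in XY supporting cells (SE 0.30, adjusted p = 0.000286), -1.18 in XX supporting cells (adjusted p = 0.00965), -1.79 in XY germ cells (adjusted p = 2.39e-05) and -0.92 in XX germ cells (adjusted p = 0.028). The last was -0.40 without the first XX array at TS13 (adjusted p = 0.434) and -0.69 without the third XX array at TS34 (adjusted p = 0.196), and that of XX supporting cells had an adjusted p of 0.0529 without the second array at TS13. With all 36 arrays neither XX comparison was called (adjusted p = 0.209 in germ cells and 0.278 in supporting cells).

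These added comparisons called 6 of 34 receptors in XX germ cells, against 17.5% of all genes, 2 in XY germ cells, against 8.14%, and 3 in XX supporting cells, against 4.64%. Nr2f2 was called in both sexes of germ cells too, at -0.99 in XX and -0.90 in XY, and was lost in XX without the third array at TS34 (-0.75, adjusted p = 0.0912) and in XY without any of 4 of the 6 arrays in turn, with the adjusted p reaching 0.196. Neither was called with all 36 arrays (adjusted p = 0.154 in XX and 0.362 in XY). Among the receptors called in these comparisons, only Nr0b1 in XX germ cells overlapped between TS34 and TS13. The calls rest on the same values, so the lack of overlap adds no support to them.

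Of the tested receptors, 7 were called in none of the 17 comparisons: the oestrogen receptor Esr2, the oxysterol receptor Nr1h3, the orphan receptor Nr2f6, the retinoid-related orphan receptors Rora and Rorb, the retinoid partner Rxrg and the thyroid hormone receptor Thrb. Of these, Rora ranged from 6.36 to 7.36 on germ cell arrays and from 6.66 to 7.53 on supporting cell arrays, and Nr2f6 from 6.36 to 7.77 in germ cells and from 6.80 to 7.76 in supporting cells. Thrb, in contrast to its paralogue Thra, ranged from 4.88 to 5.75 in germ cells and from 4.90 to 5.80 in supporting cells. Rorb, Rxrg, Thrb, Nr3c2 and Nr4a3 had every group mean under 6, near the array background, where differences are compressed. Esr2 ranged from 5.44 to 6.26 in germ cells and from 5.60 to 6.41 in supporting cells, and Nr1h3 from 5.59 to 6.22 in germ cells and from 5.38 to 6.23 in supporting cells.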

How the data were processed

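The deposited table held 1 log2 expression value per probe set and array, which the authors made by RMA, as the submitters' processing notes say; no software version was given in those notes. Array medians ran from 6.412 to 6.841, and the values were used without further normalization. Of 35557 probe sets, 21789 had 1 gene symbol in the platform annotation, 1621 had several and 12147 were not listed, and 21698 symbols were updated by Entrez identifier to RefSeq (GRCm38.p6). Where a gene had several probe sets, the one brightest on average was taken. Replicates correlated within groups at r of 0.9631 to 0.9915, and no 2 columns were identical. For arrays the number of arrays limits the precision.

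limma 3.58.1 in R 4.3.3 was fitted as 1 mean per group over 35 arrays, with no covariates, 23 residual and 25.96 prior degrees of freedom (median SE 0.211 for 3 against 3 arrays), two-sided and adjusted over 17571 genes; 2367 dim genes were removed. The fit was also run on simulated data, with independent noise, equal group means and changes added to some genes in XY germ cells at TS34. Most genes given the smallest change were not called there. Such data hold no effect of mouse line, pooling or array, so the run does not bear on these. Tests covered 17 comparisons, and 4 comparisons of TS34 with TS13 were added after seeing the data. Alternatives were all 36 arrays, quantile normalization, median centring, other filters, the mean of all probe sets, a replicate block and leaving out each array.

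Members and gene lists were chosen with earlier results of these data known. Array values are given for the 10 largest called germ minus supporting differences, for receptors called between sexes, and for the 4 largest of each stage step. Of each list up to 4 called genes of largest difference per comparison are named, and others are values singled out after they were seen. Some listed genes are not reported here. Replicate numbers did not pair the samples: deviations of arrays with the same number correlated at a median r of -0.007 over 187 pairs (from -0.508 to 0.521), and those of different numbers at 0.003.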

Additional observations from a re-analysis of the deposited data

Results flagged for a closer look

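The sex difference of 4 receptors changed between TS13 and TS34 by the test of that change itself. In germ cells XY minus XX at TS34 minus that at TS13 was -1.40 for Nr6a1, -1.54 for Pparg and -1.13 for Nr3c1. In supporting cells it was 1.34 for Thra, where the mouse line of XY cells also changed between the stages, and the part of the line was not tested. Groups of 3 arrays are too small for a test of single outlying arrays.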

How the results depend on the processing

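No alternative turned the direction of any of the 85 called differences. With all 36 arrays 20 of them lost the call, and the count of called receptors was 1 for XY minus XX in supporting cells at TS13, 1 for TS24 minus TS13 and 4 for TS34 minus TS24 in XX germ cells, 0 for TS24 minus TS13 in XY germ cells, 1 for the change of the sex difference in germ cells and 0 in supporting cells, and 2, 1 and 1 for TS34 minus TS13 in XX germ, XY germ and XX supporting cells. The fit gave each group its own mean, and all groups shared 1 spread per gene. Differences without XX germ cells at TS24 therefore stayed the same, and only their SE and adjusted p moved. Nr2f2 between the sexes of supporting cells at TS13, for example, was -1.13 in both fits. What set the added array apart was not tested. Quantile normalization gave 5 at TS13 between the sexes in supporting cells, 2 for TS24 minus TS13 and 4 for TS34 minus TS13 in XY germ cells; median centring gave 2 and 4 for the last of these pairs of stages, and 2 for the change of the sex difference in supporting cells. For TS34 minus TS24 in XX germ cells, a 50th percentile filter gave 0 and the mean of all probe sets 2. The replicate block gave 1 for XY minus XX in germ cells at TS24, where Rxra was lost (adjusted p = 0.0603), and changed no other call. Without 1 array at a time, 24 of the 85 calls were lost at least once, and counts ran from 23 to 26 for germ minus supporting, for XY minus XX from 0 to 0, 1 to 2 and 3 to 8 in germ cells at TS13, TS24 and TS34, and from 2 to 4, 7 to 9 and 7 to 7 in supporting cells. For neighbouring stages they ran from 0 to 1 and 1 to 4 in XX germ, 0 to 2 and 0 to 0 in XY germ, 1 to 2 and 0 to 1 in XX supporting, and 6 to 9 and 0 to 0 in XY supporting cells. For the change of the sex difference they ran from 2 to 4 in germ and 1 to 2 in supporting cells, and for TS34 minus TS13 from 3 to 10, 1 to 3, 2 to 3 and 5 to 6 in XX germ, XY germ, XX supporting and XY supporting cells. A lone remaining array was assumed to vary like the other groups.

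Groups of 3 arrays, signals near the array background in 5 receptors and 1 probe set per gene limit these values.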

Other observations

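Coregulators, the proteins through which nuclear receptors activate or repress genes, divided evenly between the cell types. Of 18 tested, 7 were higher and 7 lower in germ than in supporting cells (median 0.07, against 0.08 over all genes). Among the 17571 tested genes, higher calls made up 32.9% and lower calls 20.3%. Besides Ppargc1a (-1.65), the large differences were those of the coactivators Ncoa7 (-1.82) and Ncoa3 (1.16) and of the corepressor subunit Tbl1xr1 (0.96). Between the sexes Ncoa7 was higher in XY supporting cells at TS24 (0.73, SE 0.22) and TS34 (1.16, SE 0.22), and in germ cells Ncoa1 was lower in XY at TS24 (-0.98, SE 0.23) and TS34 (-1.13, SE 0.21), as was Ncoa6 (-0.92, SE 0.23, and -0.67, SE 0.20). Of 8 liver X receptor targets, 2 were higher and 2 lower in XY supporting cells at TS34 (median -0.18, against -0.01). Among these the cholesterol exporter Abcg1 was at 0.76 and Mylip, which degrades lipoprotein receptors, at -1.15. Of 5 tested genes of hormone and vitamin metabolism, 2 were higher in XY supporting cells at TS34 (median -0.01), Hsd17b3, which makes testosterone, at 6.30 and Hsd17b1, which makes oestradiol, at 1.25.

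The third XX germ cell array at TS24, left out above, read 10.47 for Nr2f2, 9.27 for Nr0b1, 8.35 for Thra, 6.02 for Nr5a2 and 7.54 for Nr6a1. For 15 of the 35 receptors its value lay outside the range of the other 17 germ cell arrays.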
